A study of Mus musculus with 30 samples.

Results

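The transcripts described here encode the ubiquitin ligases and transcription factors of the muscle atrophy program. They are 10 genes chosen by name: the ligases Fbxo32, Trim63, Trim55, Fbxo30, Fbxo21 and Fbxo40, the forkhead factors Foxo1, Foxo3 and Foxo4, and the glucocorticoid-induced factor Klf15. They were picked from 55487 genes in the count table, all 10 had counts, and all 10 were among the 15907 genes that passed the filter on low counts. RNA-sequencing was performed on C2C12 myotubes, the multinucleated cells that a clonal mouse myoblast line of wild-type genotype forms when serum is lowered. All cells were differentiated for 4 days in low glucose medium with 2% horse serum and were then kept for another 4 days in 1 of 5 conditions. The control stayed in 2% horse serum (2% HS), and the other groups were deprived of serum (SD), alone or with 100 nM metformin (MET), 500 nM leucine (LEU) or both at those doses (MET+LEU). Each group had 6 replicates, and the sources used here do not state whether these came from separate cultures, so that the p-values measure only the spread between these libraries. The comparison of SD with 2% HS asks what serum loss did to these transcripts, and the comparisons within SD ask whether metformin, leucine or the cocktail altered them.

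Muscle loses mass when protein breakdown exceeds synthesis, and much of that breakdown passes through the ubiquitin-proteasome system. A ubiquitin ligase, or E3, chooses the substrate: Fbxo32 (atrogin-1) and other F-box proteins do so as the receptor of a cullin complex, while Trim63 (MuRF1) and Trim55 (MuRF2) are RING-finger ligases that sit on the sarcomere. When insulin or IGF signaling through Akt falls, FoxO factors move to the nucleus and bind the promoters of Fbxo32 and Trim63. Glucocorticoids act on the Trim63 promoter through their receptor and also raise Klf15. That factor is known to induce Fbxo32, Trim63 and enzymes of amino acid breakdown in muscle.

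Libraries held between 12784960 and 19604103 counts on genes. Replicate 6 of MET+LEU stood apart, with 5.85% of its counts on rRNA genes and 7.64% on mitochondrial rRNA, where the other 29 libraries held at most 1.96% and 0.760%. All 10 markers of myotubes had counts, with a summed level of 9468 to 10276 CPM in 2% HS, 8664 to 10362 in SD and 9002 to 10188 in MET+LEU. The sum was 9376 to 9900 CPM in LEU and 8803 to 9299 CPM in MET, where all libraries lay below those of 2% HS. Single markers moved within that sum. In SD compared to 2% HS, 0 were higher and 3 lower at an edgeR adjusted p under 0.05. Ckm (log2 fold change -0.98) and Ryr1 (-0.26) were among the 3, where 13.9% of all tested genes passed in each direction. In MET compared to 2% HS, 0 were higher and 5 lower, where 17.4% of all genes were higher and 17.5% lower. In MET+LEU compared to SD, 2 were higher and 2 lower, where 18.4% of all genes passed. CPM here and below are counts scaled to the library's total after correction by TMM factors. Of 6 fibroblast markers, 4 were tested and all 4 (Pdgfra, Dpt, Col3a1 and Ly6a) were higher in SD. The summed level was 2460 to 2677 CPM in 2% HS and 4384 to 4759 CPM in SD. Nearly all of that sum was Col3a1, with means of 2539 and 4506 CPM. Tcf21 had 0 counts in all libraries and Thy1 at most 7. The summed level of 10 markers of unfused or cycling myoblasts was 528 to 571 CPM in 2% HS, 490 to 552 CPM in SD and 435 to 470 CPM in MET+LEU. The lower sum in SD was not shared by all 10. In SD compared to 2% HS, 2 passed as higher, among them Cd34 (log2 fold change 0.43), and 1 as lower, Pax7 (-0.37). Their median was 0.08, and 13.9% of all tested genes passed in each direction. In MET+LEU compared to SD, 0 of these 10 passed as higher and 6 as lower, with a median of -0.48. There 18.4% of all genes passed, 7.8% being lower. In LEU compared to SD, 0 were higher and 3 lower with a median of -0.29, where 0.553% of all genes passed. The sum of 4 macrophage markers stayed at or below 4.43 CPM, with Adgre1 at 0 counts. The part of these shifts in the values below was not tested, and in bulk RNA fewer cells of a type cannot be told apart from less RNA per cell.

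Ranked by level per length, the sarcomeric ligase Trim55 was the most abundant of the 10 transcripts. In 2% HS it reached 48.5 ± 2.37 CPM per kb of exon (SD, n = 6), followed by Foxo3 at 22.7 ± 0.796, Fbxo32 at 19.97 ± 0.701 and Foxo1 at 18.5 ± 0.758. Fbxo30 (14.5 ± 0.637) and Trim63 (14.3 ± 0.794) were nearly level, with overlapping libraries. Foxo4, Fbxo21, Fbxo40 and Klf15 stood lower, at 8.63 ± 0.533, 4.09 ± 0.213, 1.18 ± 0.111 and 0.888 ± 0.188 CPM per kb. Klf15 was thus the scarcest of them even where it was highest. The lengths are those of the union of all annotated exons, which is longer than most single transcripts.

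**Figure D1:**
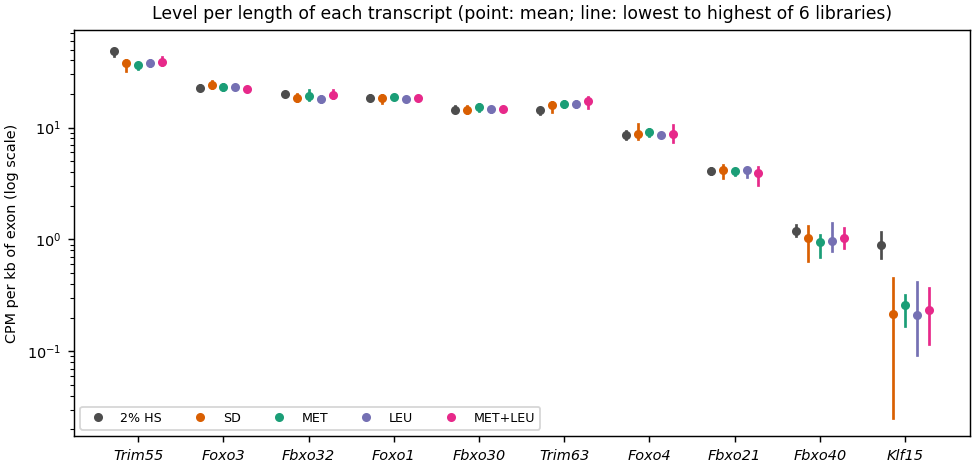
Level per length of the 10 transcripts in the 5 groups, in TMM-scaled CPM per kb of exon on a log axis. Points are means of 6 libraries and lines run from the lowest to the highest library. Trim55 sits at the top in each group and Klf15 at the bottom, where its 4 groups without serum fall well below 2% HS.

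Removing serum for 4 days did not raise the atrophy transcripts together. Of the 10 members, 1 rose and 3 fell in SD compared to 2% HS (edgeR quasi-likelihood test, Benjamini-Hochberg adjusted p under 0.05), where 27.8% of all tested genes passed (13.9% higher and 13.9% lower). Trim63 rose, while Trim55, Fbxo32 and Klf15 fell. Metformin alone changed 0 of the 10 compared to SD, where 0.157% of all genes passed, and leucine alone changed 0, where 0.553% passed. In both of these comparisons 0 members had an unadjusted p under 0.05, and DESeq2 and limma-voom also called 0. MET+LEU changed 1 member compared to SD, a fall of Foxo3, where 18.4% of all genes passed, 7.8% of all genes being lower. The 4 groups without serum share the 2% HS control and the 3 treated groups share the SD libraries, so these counts are not independent of one another.

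**Figure D2:**
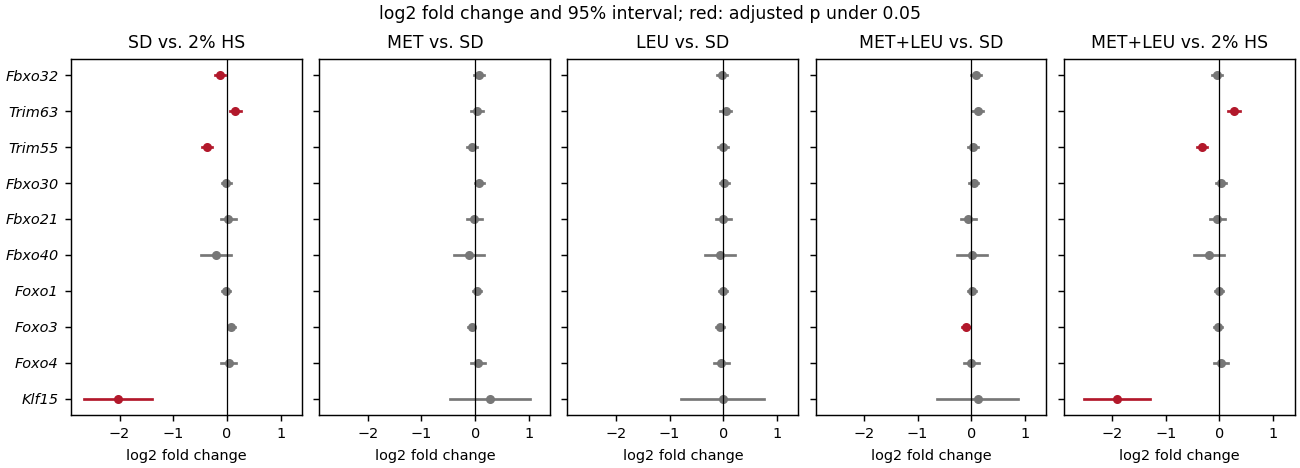
Log2 fold change of each of the 10 transcripts in 5 comparisons, with its 95% interval (x axis) and red where the adjusted p was under 0.05. SD vs. 2% HS has 4 red genes, MET vs. SD and LEU vs. SD none, MET+LEU vs. SD only Foxo3, and MET+LEU vs. 2% HS Trim63, Trim55 and Klf15.

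Trim55 gave the most certain change among the ligases. The gene lies on chr3:19644474-19692421 (plus strand, GRCm38), with 11 exon blocks, and its product MuRF2 binds titin and microtubules in the developing sarcomere. In 2% HS the lowest, median and highest libraries held 117, 130 and 135 CPM. In SD they held 85.7, 103 and 107 CPM. Each SD library was below each 2% HS library, a lack of overlap seen in 13.6% of all tested genes for this comparison. The log2 fold change was -0.37 ± 0.05 (SE, 95% interval -0.46 to -0.27, adjusted p = 8.4e-09), so that the level fell by 22.4%. The treated groups also stood low, at 88.5, 96.8 and 101 CPM in MET, 94.2, 98.3 and 106 CPM in LEU and 96.7, 100.0 and 113 CPM in MET+LEU, whose highest libraries lay above the SD range. None of the 24 libraries without serum reached the lowest library with serum. Ordered by mean, 2% HS came first and differed from MET+LEU, the next in order (log2 fold change -0.33 ± 0.05, adjusted p = 7.6e-08), while MET+LEU, SD, LEU and MET did not differ between neighbours.

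Trim63 moved the other way. It encodes MuRF1, the ligase that marks thick filament proteins for breakdown, and lies on chr4:134315120-134329629 (plus strand), with 10 exon blocks. Its promoter is shown because it carries the letters of both regulators named above, and the capitals mark the run of these matches, from 208 to 188 bases before the start (chr4:134314912-134314932).
Trim63: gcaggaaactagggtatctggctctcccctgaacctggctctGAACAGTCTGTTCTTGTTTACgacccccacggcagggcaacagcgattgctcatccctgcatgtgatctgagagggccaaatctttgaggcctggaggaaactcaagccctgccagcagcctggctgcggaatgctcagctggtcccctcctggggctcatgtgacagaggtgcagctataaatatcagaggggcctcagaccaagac
The sequence is the 250 bases before the RefSeq start on the plus strand (chr4:134314870-134315119, GRCm38.p6). The glucocorticoid response letters (GNACA, 3 bases of any kind, TGTNC) were matched by GAACAGTCTGTTC, 208 to 196 bases before the start. The forkhead core GTAAACA was matched on the other strand, as TGTTTAC, 194 to 188 bases before the start, and the insulin response core AAACAA matched there too, as TTGTTT, overlapping the forkhead match. On both strands, the glucocorticoid letters occurred in 0.475% of 32817 RefSeq promoter windows of 300 bases, GTAAACA in 3.65% and AAACAA in 20.7%, and 5 windows (0.0152%) held both the glucocorticoid letters and the forkhead core. Among the 8 windows of 7 members, 1 held the glucocorticoid letters and 1 the forkhead core, both being Trim63, and 2 held AAACAA. These matches are descriptions of the letters, and Fbxo32, Trim55 and Foxo4 had no entry.

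In 2% HS the lowest, median and highest libraries of Trim63 held 37.5, 41.2 and 42.8 CPM, and in SD they held 39.6, 46.0 and 48.0 CPM. Those 2 groups overlapped, through 1 SD library, replicate 5. The log2 fold change was 0.15 ± 0.05 (SE, interval 0.05 to 0.26, adjusted p = 0.0214). The call depended on single libraries: leaving out replicate 2 or 6 of 2% HS or replicate 3 or 6 of SD gave log2 fold changes of 0.13, 0.13, 0.13 and 0.14 with edgeR adjusted p-values of 0.0700, 0.0600, 0.0645 and 0.0513. MET held 43.1, 46.1 and 48.9 CPM and LEU 43.4, 46.7 and 49.2 CPM, all above the highest 2% HS library. MET+LEU had the highest mean, 49.1 ± 3.61 CPM, with libraries from 42.8 to 53.6 CPM around a median of 49.3 CPM. Its lowest library, replicate 5, overlapped the 2% HS range. Compared to 2% HS, Trim63 was higher in MET+LEU by a log2 fold change of 0.27 ± 0.05 (interval 0.17 to 0.38, adjusted p = 1.9e-05). Compared to SD the difference was 0.12 ± 0.05 (interval 0.02 to 0.23), with an adjusted p of 0.0815 that missed the threshold. Over 38 alternatives the difference ran from 0.08 to 0.15 and the adjusted p from 0.0306 to 0.255. It passed in 1 of them, without replicate 5 of MET+LEU, and without replicate 6 of MET+LEU it was 0.11 with an adjusted p of 0.173.

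Set per length, the opposite changes of the MuRF ligases gave different ratios with and without serum. The ratio of Trim63 to Trim55, per length, was 0.296 ± 0.0281 in 2% HS (n = 6) and 0.424 ± 0.0519 in SD. In MET, LEU and MET+LEU it was 0.450, 0.437 and 0.448. The highest library in 2% HS, at 0.337, lay below the lowest in SD, at 0.348. These ratios restate the 2 fold changes and were not tested.

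Fbxo32, the F-box protein atrogin-1 whose known substrates are MyoD and the initiation factor eIF3f, fell slightly without serum. The gene lies on chr15:58175879-58214932 (minus strand), with 9 exon blocks, of which 186 bases overlap the opposite-strand gene Gm15943, itself at 0 to 8 counts per library. Libraries in 2% HS held 133, 139 and 145 CPM (lowest, median and highest), and those in SD held 120, 128 and 139 CPM. The groups overlapped in part, since the highest SD library reached the middle of the 2% HS range. The log2 fold change was -0.13 ± 0.04 (SE, interval -0.22 to -0.03, adjusted p = 0.0291), so that the level fell by 8.37%. This call too rested on few libraries: leaving out replicate 1 or 2 of 2% HS, or replicate 1 or 6 of SD, left log2 fold changes of -0.12, -0.12, -0.11 and -0.12 with edgeR adjusted p-values of 0.0579, 0.0590, 0.0654 and 0.0570. LEU held 118, 127 and 134 CPM and was also lower than 2% HS (log2 fold change -0.15 ± 0.04, adjusted p = 0.0106). MET held 123, 133 and 151 CPM and MET+LEU 128, 132 and 153 CPM, both spanning the 2% HS range. Their differences from SD were 0.07 ± 0.04 (interval -0.02 to 0.16) and 0.09 ± 0.04 (interval -0.00315 to 0.18), with adjusted p-values of 0.632 and 0.165. In the order 2% HS, MET+LEU, MET, SD and LEU, no neighbours differed.

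The remaining F-box ligases stayed near their 2% HS level. Fbxo30 (MUSA1), a ligase raised after denervation, is on chr10:11281330-11298052 and ranged over all 30 libraries from 70.7 to 83.7 CPM. Its SD vs. 2% HS log2 fold change was -0.02 ± 0.04 (interval -0.10 to 0.07, adjusted p = 0.786), so that a rise above 0.07 on the log2 scale lies outside the interval. Fbxo21 (SMART), on chr5:117976730-118010201, held 22.7 ± 1.18 CPM in 2% HS and 22.97 ± 2.26 CPM in SD, with a log2 fold change of 0.02 ± 0.07 (interval -0.12 to 0.16). Both genes showed overlapping libraries in every group.

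Fbxo40, a muscle-restricted ligase for the insulin receptor substrate IRS1, was scarce and less precisely measured. It lies on chr16:36963460-36990467 and had 57 to 139 counts per library. Its level was 6.52 ± 0.615 CPM in 2% HS. MET+LEU (5.72 ± 0.777 CPM) and SD (5.64 ± 1.25 CPM) came next, and LEU (5.39 ± 1.22 CPM) and MET (5.19 ± 0.803 CPM) were last, with no neighbours differing. All 4 means without serum were lower, and none of the differences passed the test. The largest was that of MET, with a log2 fold change of -0.33 ± 0.13 (interval -0.61 to -0.05, adjusted p = 0.0526). It passed in 12 of 38 alternatives, among them limma-voom, with adjusted p-values from 0.0164 to 0.151. The difference of LEU from 2% HS was -0.28 ± 0.14 (adjusted p = 0.120). It passed in 1 of 38 alternatives, without replicate 1 of LEU (-0.41, adjusted p = 0.0184), and the adjusted p reached 0.258 in the others.

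**Figure D3:**
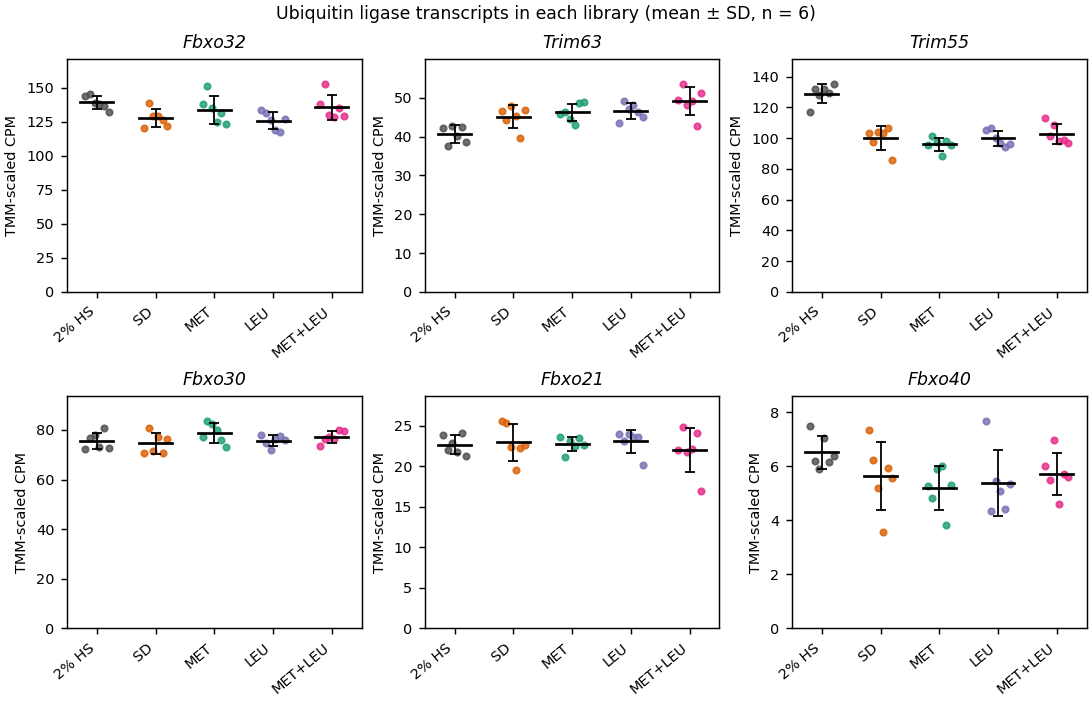
TMM-scaled CPM of the 6 ligases in each library (points, 6 per group), with the group mean and SD in black and the y axis starting at 0. Trim55 in 2% HS, at 117 to 135 CPM, sits above all libraries without serum, Trim63 is lowest in 2% HS, and Fbxo30 and Fbxo21 are level across groups.

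Summed per length, the 6 ligases came to 103 ± 1.76 CPM per kb in 2% HS and to 91.3 ± 2.74 in SD (n = 6 each). The highest SD library, at 93.4, lay below the lowest 2% HS library, at 99.1. MET, LEU and MET+LEU summed to 91.8, 91.7 and 95.2 CPM per kb. Trim55 made up 47.3% of the sum in 2% HS and 41.2% in SD, and Trim63 13.9% and 17.4%. This sum follows Trim55 most, and it was not tested.

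None of the FoxO factors passed the test in SD vs. 2% HS. Foxo1, which drives Fbxo32 and Trim63 when Akt is low, lies on chr3:52268336-52353221 (plus strand), and 674 of its exon bases overlap the opposite-strand gene Gm20402, at 0 to 3 counts per library. Group means ran from 157 ± 4.61 CPM in LEU to 162 ± 2.13 CPM in MET. SD differed from 2% HS by -0.02 ± 0.04 (log2 fold change, interval -0.10 to 0.05, adjusted p = 0.707), and MET+LEU from SD by 0.02 ± 0.04 (interval -0.06 to 0.09). The intervals thus leave room for changes of at most about 0.10 on the log2 scale in either comparison. Foxo4, on chrX:101254528-101260873, ranged from 29.9 ± 0.864 CPM in LEU to 31.8 ± 1.94 CPM in MET, and its SD vs. 2% HS log2 fold change was 0.03 ± 0.07 (interval -0.11 to 0.16). Both factors are controlled largely by phosphorylation and location in the cell, which RNA counts do not measure.

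Foxo3, the factor best known for switching on Fbxo32 in atrophy, was the most abundant of the family and the only member that MET+LEU altered compared to SD. It lies on chr10:42181841-42276755 (minus strand). The lowest, median and highest libraries held 164, 173 and 180 CPM in 2% HS, 170, 184 and 197 CPM in SD and 160, 171 and 177 CPM in MET+LEU. In SD 4 of the 6 libraries exceeded every MET+LEU library, and the groups overlapped. The log2 fold change of MET+LEU vs. SD was -0.11 ± 0.04 (SE, interval -0.18 to -0.03, adjusted p = 0.0268), so that the level fell by 7.21%. It was -0.10 (adjusted p = 0.0493) without replicate 6 of MET+LEU and -0.09 (adjusted p = 0.0606) without replicate 5 of SD, and the adjusted p was 0.0712 with limma-voom and 0.142 when only MET+LEU and SD were fitted. SD vs. 2% HS gave 0.08 ± 0.04 (interval 0.01 to 0.15, adjusted p = 0.0812), which missed the threshold. Over 38 alternatives it ran from 0.06 to 0.10 with adjusted p-values from 0.0350 to 0.253, and it passed in 1 of them, without replicate 3 of SD. MET+LEU did not differ from 2% HS detectably (log2 fold change -0.03 ± 0.04, interval -0.10 to 0.05). MET and LEU lay between, at 174 ± 7.67 and 174 ± 3.86 CPM, and no neighbours in the order SD, LEU, MET, 2% HS and MET+LEU differed.

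Klf15 had the largest change of the 10. It encodes a Krüppel-like zinc finger factor that glucocorticoids induce, and it lies on chr6:90462576-90475238 (plus strand), with 5 exon blocks. Its promoter is shown because this transcript changed most, with E-box letters CACGTG in capitals.
Klf15: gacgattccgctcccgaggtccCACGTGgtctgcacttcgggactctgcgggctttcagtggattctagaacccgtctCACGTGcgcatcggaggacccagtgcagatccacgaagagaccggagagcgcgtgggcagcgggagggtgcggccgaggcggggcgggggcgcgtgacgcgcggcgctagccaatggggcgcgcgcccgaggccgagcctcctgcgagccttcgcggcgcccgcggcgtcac
The sequence is the 250 bases before the RefSeq start on the plus strand (chr6:90462326-90462575, GRCm38.p6). The capitals lie 228 to 223 and 172 to 167 bases before the start, and the last letters of the stretch begin another CACGTG that crosses the start. The general E-box letters CANNTG occurred in 72.3% of the RefSeq windows and in 5 of the 8 member windows. A match to CANNTG thus does not set this promoter apart. Among the member windows only that of Klf15 held the narrower CACGTG, and its share over all RefSeq windows was not counted. The Klf15 window held 0 matches to the forkhead core, the insulin response core and the glucocorticoid letters, which says only that these letters are not in this window.

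In 2% HS the lowest, median and highest libraries held 1.90, 2.25 and 3.25 CPM of Klf15, from 29 to 46 counts each. In SD they held 0.0714, 0.495 and 1.26 CPM, from 1 to 19 counts. All SD libraries lay below all 2% HS libraries, as for Trim55, and the summed counts were 224 and 55. The log2 fold change was -2.03 ± 0.30 (SE, interval -2.65 to -1.40, adjusted p = 5.3e-07), so that the level fell by 75.5%, and 99.7% of tested genes had a smaller absolute change. The treatments left it low, with ranges of 0.468 to 0.897 CPM in MET, 0.261 to 1.17 CPM in LEU and 0.324 to 1.03 CPM in MET+LEU. Klf15 was lower than in 2% HS in each, with log2 fold changes of -1.75 ± 0.29 in MET (adjusted p = 3.5e-06), -2.04 ± 0.30 in LEU (adjusted p = 4.1e-07) and -1.91 ± 0.30 in MET+LEU (adjusted p = 9.8e-07). No library without serum overlapped one with serum. Compared to SD, MET+LEU gave 0.12 ± 0.37 (interval -0.64 to 0.88, adjusted p = 0.860). At these counts a change of that size was not detectable, and even a rise of 0.88 on the log2 scale would lie within the interval. Klf15 rested on the fewest counts of any member, under 50 per library.

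**Figure D4:**
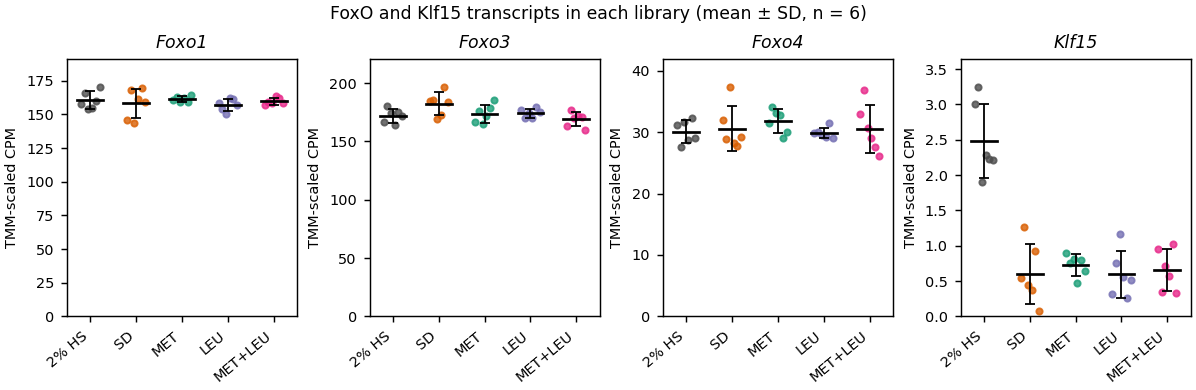
TMM-scaled CPM of Foxo1, Foxo3, Foxo4 and Klf15 in each library (points, 6 per group), with the group mean and SD in black and the y axis starting at 0. The 3 FoxO factors are level across groups apart from a slightly higher Foxo3 in SD, while Klf15 drops from at least 1.90 CPM in 2% HS to at most 1.26 CPM in the other groups.

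Set against 2% HS, Trim63 was higher and Trim55 and Klf15 were lower in each treated group. MET+LEU changed 3 members (1 higher, 2 lower), where 42.3% of all tested genes passed (22.1% higher, 20.3% lower). MET changed 3 (1 higher, 2 lower), where 35% passed (17.4% higher, 17.5% lower), and LEU changed 4 (1 higher, 3 lower), where 29.7% passed (14.4% higher, 15.3% lower). Libraries did not overlap with 2% HS for 2 members in MET+LEU, where 21% of all genes did not overlap. They did not overlap for 3 members in MET, where 20.2% did not, and for 3 in LEU, where 18.6% did not. Trim63 rose in each, with log2 fold changes of 0.18 ± 0.05 in MET (adjusted p = 0.00339) and 0.19 ± 0.05 in LEU (adjusted p = 0.00244) beside that of MET+LEU. Trim55 fell in MET by 0.42 (adjusted p = 1.3e-10) and in LEU by 0.37 (adjusted p = 5.9e-09). The shares of members are near those of all genes, and they do not set the members apart by number.

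Adding 1 agent to the other, and the factorial interaction, showed no member past the threshold. With edgeR, MET+LEU vs. MET called 0 of the 10, where 8.69% of all genes passed, and MET+LEU vs. LEU called 0, where 6.28% passed. LEU vs. MET called 0, where 0.0754% passed, and the interaction of MET and LEU called 0, where 0.0503% passed. The unadjusted p was under 0.05 for 1, 1, 0 and 0 members, and DESeq2 and limma-voom called 0 in all 4. A fall of Foxo3 with MET+LEU and not with either agent is thus not shown to differ between them.

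The transcripts whose pattern was most like a member's over the 30 libraries were found by Pearson r of log2 CPM among 12698 genes, with r after subtraction of group means beside it. Closest to Fbxo32 were Mospd1 (r = 0.737, within groups 0.659), Lpgat1 (0.728, 0.601) and Cfl2 (0.722, 0.692), the last a muscle cofilin. Closest to Trim63 were Arl6ip4 (0.903, 0.776), Rpl31 (0.860, 0.742), a ribosomal protein, and Psma7 (0.859, 0.676), a subunit of the 20S proteasome. Closest to Foxo1 were 1190002N15Rik (0.860, 0.869), Gm42659 (0.725, 0.767) and Zc3h11a (0.718, 0.812). The points share libraries, depth and scaling, and each gene is the highest of many, so these are descriptions. Among the members themselves, within-group r over 45 pairs ran from -0.515 to 0.470 with a median of 0.0164, so that libraries high in 1 member were not generally high in the rest.

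Genes around the members were read from 6 lists chosen by function. Of 19 other muscle ubiquitin ligases, 1 rose and 5 fell in SD compared to 2% HS, with a median log2 fold change of -0.06 against 0.00 for all genes, of which 13.9% passed in each direction. The largest falls were those of Fbxl22 (-1.29 ± 0.18), an F-box protein of the Z-disc, and of the SOCS-box proteins Asb15 (-0.95 ± 0.17) and Asb2 (-0.53 ± 0.06), while the p53 ligase Mdm2 rose (0.23 ± 0.05). MET+LEU compared to SD, where 18.4% of all genes passed, raised 2 and lowered 2 of them, among the latter Ubr4 (-0.10 ± 0.03), a large N-end rule ligase. Of the 18 genes of the SCF core, ubiquitin and conjugating enzymes, 2 rose and 0 fell in SD. In MET+LEU 4 rose and 1 fell compared to SD, including Cul1, the scaffold of the complex that holds Fbxo32 (0.19 ± 0.03, adjusted p = 1.2e-05). Ubiquitin and ribosomal protein genes such as Rpl31 have near-identical copies, and how shared reads were counted is not given in the sources used here.

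Known FoxO targets went both ways without serum. Of 30, 8 rose and 7 fell in SD compared to 2% HS, with a median of 0.02, where 13.9% of all genes passed in each direction. Txnip, an inhibitor of thioredoxin and glucose uptake, rose by 1.54 ± 0.09 (log2 fold change, adjusted p = 3.9e-13) and the cell cycle inhibitor Cdkn1a by 0.44 ± 0.04. The mitophagy receptor Bnip3 fell (-0.70 ± 0.11), as did Pdk4 (-0.49 ± 0.06), the kinase that blocks pyruvate dehydrogenase. In MET+LEU compared to SD 5 rose and 2 fell, where 18.4% of all genes passed. The rises included Ctsl (0.28 ± 0.04), a lysosomal protease, Cited2 (0.28 ± 0.05) and the mitochondrial superoxide dismutase Sod2 (0.14 ± 0.04). The remaining genes are named here after their values were seen. Gadd45a (0.30 ± 0.06, adjusted p = 0.000248), the largest rise, and Cdkn1b (0.19 ± 0.05, adjusted p = 0.00430) also rose. The falls were Cdkn1a (-0.17 ± 0.04, adjusted p = 0.00236) and the autophagy kinase Ulk1 (-0.15 ± 0.05, adjusted p = 0.0196). Of 20 genes that feed into FoxO, such as kinases, phosphatases and modifying enzymes, 5 rose and 3 fell in SD with a median of 0.01. The rises included the kinase Sgk1 (0.25 ± 0.04), which can phosphorylate FoxO3, and the methyltransferase Setd7 (0.17 ± 0.03). In MET+LEU compared to SD 2 of these 20 rose and 1 fell.

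Among targets of glucocorticoids and Klf15, Ddit4, Gpt2 and Glul were the largest falls without serum. Of 12 tested, 1 rose and 4 fell in SD compared to 2% HS, with a median of -0.08 and 13.9% of all genes passing in each direction (Zbtb16 was below the filter). Ddit4 (REDD1), an inhibitor of mTORC1, fell by 0.87 on the log2 scale (SE 0.10, adjusted p = 7.8e-09), Gpt2, an alanine transaminase, by 0.79 (SE 0.05) and Glul, glutamine synthetase, by 0.53 (SE 0.03). Pik3r1, the regulatory subunit of PI3K, rose (0.19 ± 0.04). In MET+LEU compared to SD, where 18.4% of all genes passed, 3 rose and 2 fell. The falls were Per1 (-0.22 ± 0.06) and, named here after its value was seen, Ddit4 (-0.42 ± 0.10, edgeR adjusted p = 0.00403). Compared to 2% HS, MET+LEU showed 2 higher and 6 lower with a median of -0.17, where 42.3% of all genes passed, and Ddit4 was -1.30 ± 0.10.

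Transcripts of 15 proteins named as substrates of these ligases gave 3 higher and 6 lower in SD compared to 2% HS, with a median of -0.10, where 13.9% of all genes passed in each direction. Myosin-binding protein Mybpc2 (-0.997 ± 0.147) and creatine kinase Ckm (-0.98 ± 0.09), both MuRF1 substrates, fell most, Myh1 also fell (-0.39 ± 0.06), and the intermediate filament Vim rose (0.40 ± 0.04). In MET+LEU compared to SD, where 18.4% of all genes passed, 4 rose and 0 fell. The rises included the fast myosin heavy chains Myh1 (0.46 ± 0.06, edgeR adjusted p = 1.7e-06) and Myh4 (0.44 ± 0.09, adjusted p = 0.00160). Both spread more in MET+LEU, with Myh1 at 2421 ± 358 CPM against 1764 ± 78.0 in SD and Myh4 at 92.9 ± 18.1 against 68.2 ± 5.94. The genes of the lists were not examined without replicate 6 of MET+LEU. LEU alone, where 0.553% of all genes passed, raised 1 of the 15 compared to SD, Myh1 (0.25 ± 0.06, adjusted p = 0.0361), and MET alone 0.

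**Figure D5:**
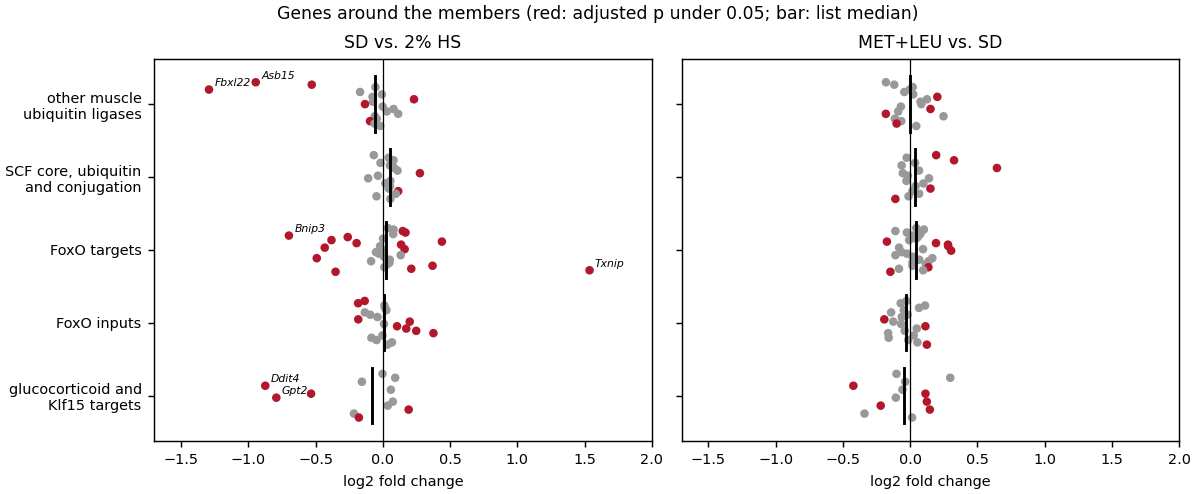
Log2 fold change of each tested gene (points, red where the adjusted p was under 0.05) in 5 of the lists, for SD vs. 2% HS and MET+LEU vs. SD, with the list median as a black bar and names in the left panel where the change exceeded 0.6. The medians stay close to 0 in both panels, and Txnip at 1.54 and Fbxl22 at -1.29 lie farthest out.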

How the data were processed

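Libraries were made from ribosomal RNA-depleted total RNA with a stranded kit. The authors deposited raw counts per Ensembl gene, and their processing notes name cutadapt 1.16, STAR 2.7.6a, featureCounts 1.6.3, DESeq2 1.30.1 and GRCm38. The annotation release, the strand setting and the treatment of multi-mapped reads are not given in the sources used here. Of 55487 identifiers, 55227 matched GENCODE M21, which gave symbols, coordinates and exon lengths. Counts were analysed in R 4.3.3 with edgeR 4.0.16. Genes passed filterByExpr (minimum count 10, minimum total 15), libraries were scaled by TMM, and glmQLFit (robust) was fitted to all 30 libraries with a mean for each group. P-values were adjusted by Benjamini-Hochberg over 15907 genes with a threshold of 0.05. The SE is the absolute log2 fold change divided by the square root of F, and 95% intervals use 25 residual degrees of freedom. The script was tested on simulated data. The alternatives were DESeq2 1.42.0, limma 3.58.1 (voom with quality weights), other scalings and filters, only the groups compared, a replicate block, a threshold of 0.01 and leaving out each library. From each list, up to 4 genes per comparison were named, those of largest absolute change among genes that passed the test, did not overlap between groups and had a mean log2 CPM of 1 or more; Fbxo32, Trim63 and Foxo1 got the 3 genes of highest r. The members and lists were chosen with earlier results of these data known. These intervals cover the spread between libraries as well as counting error. No libraries of a group agreed within sampling noise (lowest chi-square per gene 2.33).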

Additional observations from a re-analysis of the deposited data

Results flagged for a closer look

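Of 50 groups examined (10 genes in 5 groups of 6), 2 held a library whose gap to the nearest other exceeded Dixon's 95% value, where chance gives about 1 in 20. Fbxo21 in LEU replicate 6 was 20.1 CPM, below the other 5 libraries at 23.1 to 23.99 CPM. Fbxo40 in LEU replicate 1 was 7.69 CPM, above the other 5 at 4.33 to 5.46 CPM.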

How the results depend on the processing

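Trim55 and Klf15 kept their calls against 2% HS in all alternatives that gave a value, and the filter of at least 10 counts in every library removed Klf15 by its construction. Of 4166 alternative values of the 110 member values, 0 reversed a called direction, 11 lost a call, 15 gained one and 142 turned sign below the threshold in both fits. In SD vs. 2% HS, 4 members passed, 2 passed at an adjusted p under 0.01, and leaving out a library gave 2 to 4, with 2 without replicate 2 of 2% HS or replicate 6 of SD. In MET+LEU vs. SD, 1 passed, 0 passed at an adjusted p under 0.01, with limma-voom or with only the groups compared, and leaving out a library gave 0 to 2, with 0 without replicate 5 of SD and 2 without replicate 5 of MET+LEU. Foxo3 there had an adjusted p of 0.0712 with limma-voom and of 0.142 with only the groups compared; the cause was not tested. Same-numbered libraries deviated together with a mean correlation of 0.0157 (lowest -0.0913, over 60 pairs), and other-numbered libraries with a mean of -0.00314. A mean over all genes this close to 0 shows little pairing by number, but it cannot exclude pairing for some genes. Fitting a replicate block raised the genes that passed from 4424 to 4498 in SD vs. 2% HS and from 2931 to 3113 in MET+LEU vs. SD. With the replicate block, 4 members passed in SD vs. 2% HS, 0 in MET vs. SD, 0 in LEU vs. SD, 1 in MET+LEU vs. SD, 3 in MET+LEU vs. 2% HS, 4 in MET vs. 2% HS and 4 in LEU vs. 2% HS, the gain in MET being Fbxo40 (adjusted p = 0.0372), which passed in 12 alternatives of that comparison. Klf15 and Fbxo40 had the fewest counts and, with coefficients of variation beyond counting error of 0.260 and 0.131, also the largest spread between libraries among the members.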
